A study of Mus musculus with 36 samples.

Results

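Toll-like receptors and their adaptors were followed in the mouse hippocampus as 10 genes out of the 24421 gene symbols in the deposited tables. They were listed by name, with earlier results of these data known: 6 receptors (Tlr2, Tlr3, Tlr4, Tlr7, Tlr9, Tlr13), the co-receptor Cd14, the adaptors Myd88 and Ticam1, and the kinase Irak4. The tissue was hippocampus in each of 36 libraries of polyadenylated RNA, in 6 groups of 6 with 3 females and 3 males each. In the aging arm, C57BL/6 mice formed 3 groups: nanoligomer-treated mice of 18 months (old nanoligomer), untreated mice of 18 months (old) and untreated mice of 8 months (young). In the other arm, mice of 4 months formed 3 groups: APP/PS1 mice treated with a nanoligomer, untreated APP/PS1 mice, and littermates that did not carry the transgenes. APP/PS1 mice carry mutant human genes that drive amyloid deposition, and nanoligomers are short synthetic antisense molecules, here aimed, per the series title, at lowering NF-κB and NLRP3. The sources used here name neither the APP/PS1 line and the promoters of its transgenes nor the dose, route, duration or sequence of the nanoligomer. The labels call the libraries separate samples of a group without naming separate animals, so p-values measure the spread between these samples.

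Toll-like receptors are innate immune sensors of molecules from microbes and damaged cells, and in the brain they are found mainly on microglia, the resident macrophages, and to a lesser degree on astrocytes. Tlr2 and Tlr4 sit on the cell surface and sense lipoproteins and lipopolysaccharide, with Cd14 handing ligands to both. Tlr3, Tlr7, Tlr9 and Tlr13 sit in endosomes and sense double-stranded RNA, single-stranded RNA, unmethylated DNA and bacterial ribosomal RNA. All of them except Tlr3 signal through Myd88, which recruits Irak4, a kinase that starts the path to NF-κB, while Tlr3, and Tlr4 from endosomes, use Ticam1, which also leads to interferon genes.

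In GRCm38 coordinates, Tlr2 lay at chr3:83836272-83841767, Tlr3 at chr8:45395665-45411080 and Tlr7 at chrX:167304929-167330558, all on the minus strand. Tlr4 lay at chr4:66827584-66930284, Tlr9 at chr9:106222598-106226883 and Tlr13 at chrX:106143204-106160493, all on the plus strand. Myd88 was at chr9:119335934-119341411 and Ticam1 at chr17:56269319-56276786 on the minus strand, and Irak4 was at chr15:94543643-94581815 on the plus strand. Each is a protein-coding gene. Myd88 overlaps Acaa1a, which is transcribed from the opposite strand and averaged 37.5 CPM, and Irak4 overlaps Twf1 on the opposite strand, at 45.5 CPM. Tlr3 overlaps a predicted gene on the opposite strand. Whether reads were counted by strand is not stated, so the values of Myd88, Irak4 and Tlr3 are uncertain to the extent that such reads were shared. CPM here means the reads of a gene per 1000000 reads on all genes of the library.

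Promoter windows from RefSeq (build GRCm38.p6, 250 bases before to 50 after the annotated start, which can differ from the gene start above) were matched for 7 of the 10 genes. They were searched on both strands for GGGA followed by any 4 bases and CC, letters written for the binding motif of NF-κB, the factor that the nanoligomer treatment was aimed at, and for GAAA followed by any 2 bases and GAAA, written for the interferon-stimulated response element. The 3 windows that held a match are shown because Tlr3 had the smallest p and Tlr2 the largest estimate with age, and Myd88 is the adaptor that most of the receptors share. Capitals mark the matches. The windows are chr3:83841559-83841858 for Tlr2, chr8:45410331-45410630 for Tlr3 and chr9:119339969-119340268 for Myd88, each printed 5′ to 3′ on the minus strand.
Tlr2: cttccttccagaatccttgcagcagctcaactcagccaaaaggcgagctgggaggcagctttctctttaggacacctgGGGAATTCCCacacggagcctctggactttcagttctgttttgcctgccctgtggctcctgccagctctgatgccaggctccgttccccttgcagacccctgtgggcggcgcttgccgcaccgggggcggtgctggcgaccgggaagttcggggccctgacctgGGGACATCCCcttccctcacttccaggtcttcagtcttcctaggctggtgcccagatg
Tlr3: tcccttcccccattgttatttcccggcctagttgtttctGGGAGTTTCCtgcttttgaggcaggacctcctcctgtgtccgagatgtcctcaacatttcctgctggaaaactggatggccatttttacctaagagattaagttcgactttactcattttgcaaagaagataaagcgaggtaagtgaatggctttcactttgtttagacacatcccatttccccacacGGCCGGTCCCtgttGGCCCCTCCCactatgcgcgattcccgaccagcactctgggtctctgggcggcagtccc
Myd88: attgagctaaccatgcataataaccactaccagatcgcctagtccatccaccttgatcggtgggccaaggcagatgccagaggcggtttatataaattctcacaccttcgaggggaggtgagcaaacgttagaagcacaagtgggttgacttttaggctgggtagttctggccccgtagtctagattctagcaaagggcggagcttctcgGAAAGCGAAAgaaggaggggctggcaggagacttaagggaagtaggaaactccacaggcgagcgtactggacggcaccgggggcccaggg
Tlr2 held 2 matches to the NF-κB letters, each of which reads as a match on both strands, at -172 and -8 from the start. Tlr3 held 3, at -211 on the printed strand and at -23 and -9 on the other. Myd88 held 1 match to the interferon letters, at -40. Tlr9, Tlr13, Irak4 and Ticam1 held neither. Of 32851 RefSeq windows of 300 bases, 20.7% held the NF-κB letters and 3.44% the interferon letters, so a match of the first kind is common. A match is a run of letters and does not show that a factor binds there.

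Depth was 27.6 to 46.3 M reads per library, spread over 17358 to 19284 genes. APP/PS1 nanoligomer female 3 had 0.913 M reads on 9509 genes and was left out. All 10 of the markers listed for hippocampal neurons had reads in each group, with a summed level of 312 to 941 CPM per library in the aging arm and 392.4 to 907 CPM in the other. Markers of neighbouring tissue varied: the 6 choroid plexus genes summed to 21.7 to 236 CPM in old libraries and 12.4 to 4050 CPM in young ones. APP/PS1 female 3 stood apart from its group. Its 10 pan-microglia and macrophage markers summed to 1008 CPM, against a group median of 274 CPM, and all 10 members had their highest APP/PS1 level in it. Counts and medians of the members' estimates, some single estimates, and r with other genes are given with and without it. Sex differences, differences between comparisons, r among pairs of members, the pathway lists and the estimates of cell type markers are given only with it.

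Scaled by exon length, Tlr3 was the most abundant of the 10 genes, with 2.76 ± 0.413 CPM per kb (mean ± SD over 35 libraries). Ticam1 followed with 2.68 ± 0.477 CPM per kb and Myd88 with 2.12 ± 0.38 CPM per kb. These 3 levels lay above those of the other 7 genes on average, and the difference between Tlr3 and Ticam1 was smaller than the SD of either. Cd14 averaged 1.02 ± 0.459 and Tlr9 0.915 ± 0.346 CPM per kb. Tlr13, Tlr7 and Tlr2 lay together at 0.581 ± 0.278, 0.561 ± 0.262 and 0.549 ± 0.391 CPM per kb. Irak4 averaged 0.386 ± 0.156 CPM per kb and Tlr4, the lipopolysaccharide receptor, was lowest at 0.179 ± 0.0923 CPM per kb.

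The same 3 abundant genes were the steadiest. The highest library had 1.94 times the CPM of the lowest for Tlr3, 2.07 times for Myd88 and 2.14 times for Ticam1. The ratio was 16.7 for Tlr2 and 14.5 for Cd14. Within a group, the coefficient of variation of CPM had a median over the 6 groups of 12.2% for Tlr3 and 14.3% for Myd88, against 48.5% for Tlr2 and 40.8% for Tlr4. Depth differed with level: Tlr4 had as few as 10 reads in a library and Tlr3 as many as 782. Tlr2 and Tlr4 thus had a wider relative spread than Tlr3 and the adaptors, but this was not particular to surface receptors. Irak4 had a median coefficient of 40.5% and a ratio of 10.2, and the endosomal Tlr9 and Tlr7 had coefficients of 34.3% and 31.3%.

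**Figure D1:**
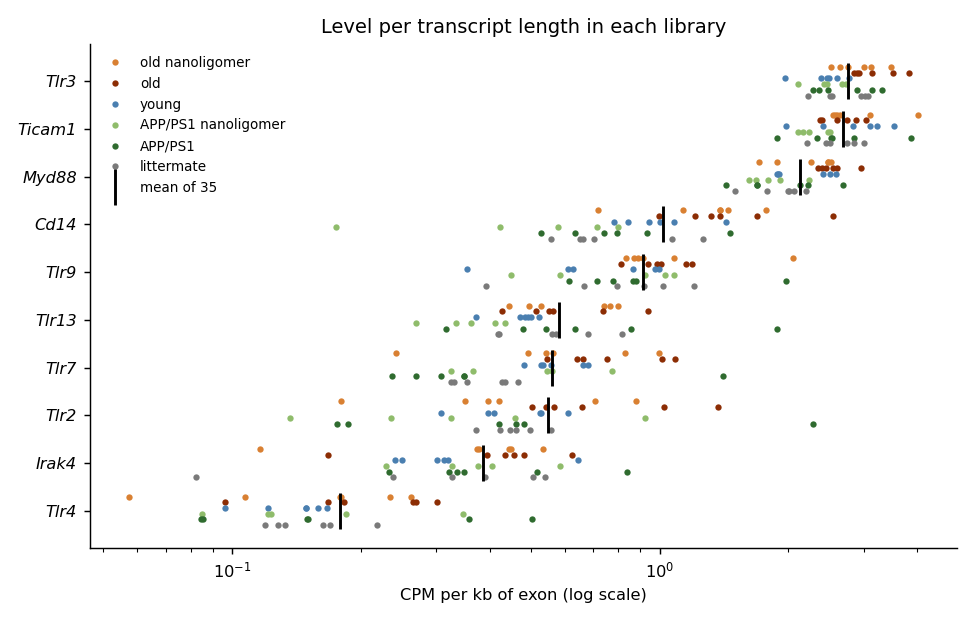
Level of each of the 10 genes per library, in CPM per kb of exon on a log axis, with a bar at the mean of 35 libraries. Tlr3, Ticam1 and Myd88 form the upper tier in narrow bands, and Tlr4 lies lowest at a mean of 0.179 CPM per kb.

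Across the 6 groups, old mice had the highest mean CPM of 5 of the 10 genes, Tlr2, Tlr3, Tlr7, Myd88 and Cd14. Tlr3 averaged 15.2 ± 1.84 CPM in old nanoligomer libraries, 16.6 ± 2.05 in old ones and 12.7 ± 1.41 in young ones (SD, n = 6 each). In mice of 4 months it averaged 12.9 ± 1.28 CPM with nanoligomer (n = 5), 14.3 ± 2.24 in APP/PS1 and 14.1 ± 1.79 in littermate libraries (n = 6 each). Neighbours in the order of these 6 means differed by less than their SDs. Cd14 averaged 2.26 ± 0.61 CPM in old nanoligomer, 2.64 ± 0.952 in old and 1.75 ± 0.397 in young libraries. Its level was lower in each group of the other arm, at 0.931 ± 0.428 CPM in APP/PS1 nanoligomer, 1.47 ± 0.571 in APP/PS1 and 1.42 ± 0.485 in littermate libraries, and no test was made across the arms, which differ in age and genotype.

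**Figure D2:**
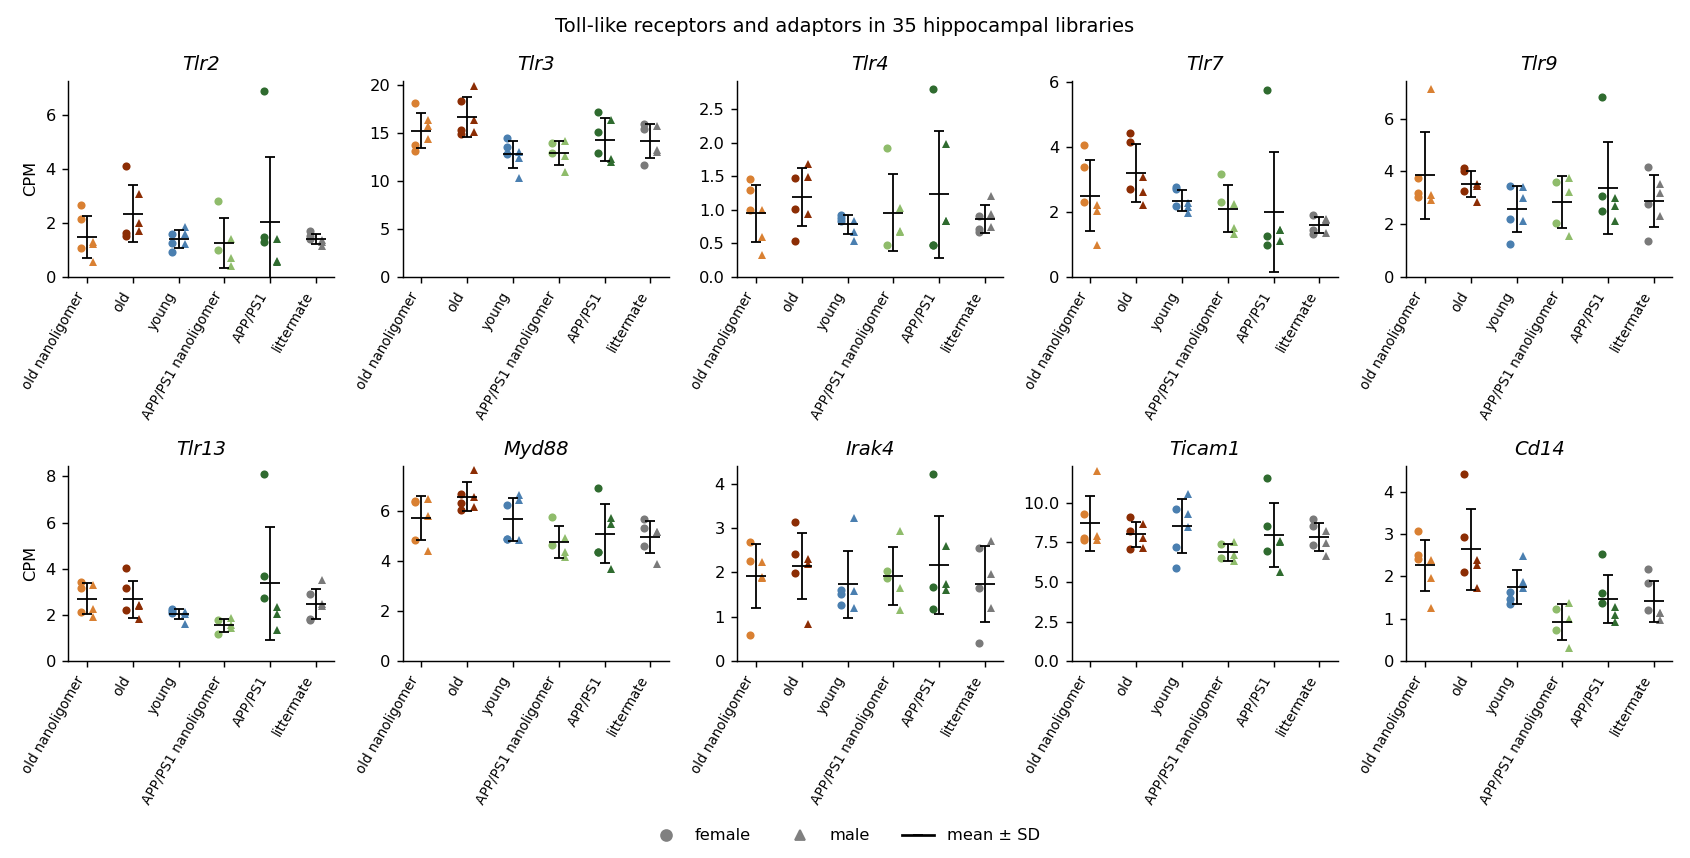
CPM of each gene in every library kept, by group, with circles for females, triangles for males, and the mean ± SD (bars cut at 0). Old libraries lie above young ones for Tlr3 with no overlap, and 1 APP/PS1 female stands far above its group for Tlr2, Tlr7, Tlr9 and Tlr13.

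The comparison of old with young mice asks how the hippocampal levels of these genes differ with age. Values are counts that the authors normalized within each comparison, and fold changes are on the scale of log2(normalized count + 1). For 9 of the 10 genes the estimate was higher in old mice. The median estimate of the 10 was 0.41 on the log2 scale, against -0.00385 over all genes tested. Limma called 0 of the 10 at a Benjamini-Hochberg adjusted p under 0.05, where it called 0.0361% of 16626 genes. At an unadjusted p under 0.05, 6 of the 10 were higher in old mice, where 3.37% of all genes were. That count was 2 without old female 2 and 3 without young female 1, young female 3 or old male 1. DESeq2, fitted to recovered reads, called 1 of the 10, Tlr3, and 0.74% of all genes. edgeR called 0, with 0.0361% of all genes called. DESeq2 counted 7 of the 10 and edgeR 5 as higher at an unadjusted p under 0.05, where 3.6% and 3.39% of all genes were.

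Tlr3, the endosomal sensor of double-stranded RNA, had the smallest p of the 10. It ran from 604 to 795 normalized counts in old libraries with a median of 644, against 424 to 583 in young libraries with a median of 521. Every old library was above every young one, which held for 1 of the 10 genes and for 0.505% of all genes in either direction. The fold was 1.32, with a log2 fold change of 0.40 ± 0.097 (SE, n = 6 each), an unadjusted p of 0.00136 and a Benjamini-Hochberg adjusted p of 0.343 in limma. Its adjusted p was 0.0347 in DESeq2 and 0.313 in edgeR, so the call depends on the tool.

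Of the receptors that signal through Myd88, Tlr2 had the largest estimate. It ran from 61.8 to 164 normalized counts in old libraries with a median of 75.4, against 37.7 to 69.4 in young libraries with a median of 56.7. The groups overlapped at the low end of the old libraries. Its log2 fold change was 0.68 ± 0.26 (unadjusted p = 0.0239, limma adjusted p = 0.722). Tlr7, the single-stranded RNA sensor, ran from 91.8 to 176 normalized counts in old libraries with a median of 117, against 74 to 110 in young libraries with a median of 90.4. The old median lay above the highest young library, and the log2 fold change was 0.43 ± 0.16 (unadjusted p = 0.0188, limma adjusted p = 0.691).

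Tlr9, which senses DNA, ran from 114 to 165 normalized counts in old libraries with a median of 141, against 49.2 to 141 in young libraries with a median of 106. The estimate was 0.54 ± 0.24 on the log2 scale, with an unadjusted p of 0.0407 in limma. Cd14 ran from 71.5 to 175 in old libraries with a median of 94, against 55 to 99.4 in young libraries with a median of 68.2. Both pairs of ranges overlapped, and Cd14 had a log2 fold change of 0.56 ± 0.23 at an unadjusted p of 0.0297. Tlr4 and Tlr13 had estimates of 0.54 ± 0.29 and 0.36 ± 0.17 with unadjusted p-values of 0.0929 and 0.0556 in limma.

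Among the signalling proteins, Myd88, the shared adaptor, ran from 243 to 304 normalized counts in old libraries with a median of 261, against 197 to 259 in young libraries with a median of 224. The log2 fold change was 0.24 ± 0.10, with an unadjusted p of 0.0382 and a limma adjusted p of 0.798. Ticam1, the adaptor of Tlr3, was the single gene with a negative estimate, -0.06 ± 0.14, and its ranges overlapped almost fully, 289 to 362 in old libraries and 239 to 426 in young libraries. Irak4 had an estimate of 0.31 ± 0.31.

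**Figure D3:**
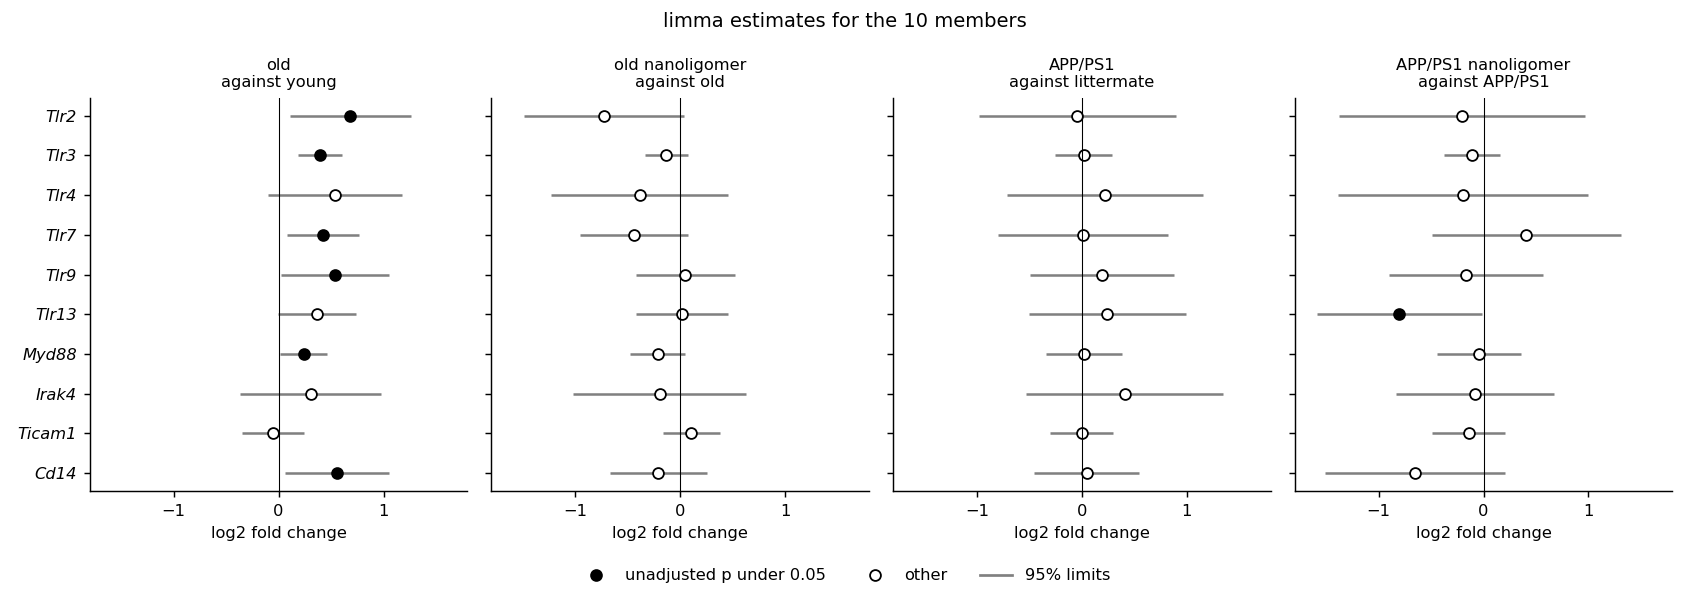
Log2 fold change of each gene in the 4 comparisons with 95% limits, filled where the unadjusted p was under 0.05 in limma. In old against young, 9 of 10 estimates are above 0 and 6 are filled, and in the other 3 comparisons 1 point is filled, Tlr13 in APP/PS1 nanoligomer against APP/PS1.

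Estimates for microglia markers ran the same way. All 12 homeostatic microglia markers were present, with none at 0 in either group, and their sum ran from 484 to 643 CPM in old libraries and 427 to 491 in young ones. The 10 pan-microglia and macrophage markers, none at 0, summed to 400 to 636 CPM in old libraries and 299 to 341 in young ones. All 12 of the first list and all 10 of the second had positive estimates, 8 and 9 of them at an unadjusted p under 0.05, with median log2 fold changes of 0.27 and 0.53. The 10 disease-associated microglia markers also had 10 positive estimates, 6 of them at that p, where 3.37% of all genes were higher. Positive signs alone were not particular to microglia markers. Hippocampal neurons had 9 of 10 positive estimates with a median of 0.33, and 0 at an unadjusted p under 0.05. Oligodendrocytes had 6 of 6 with a median of 0.20, 1 of them at that p. Choroid plexus, striatum and thalamus each had 0 of 6 positive estimates, with medians of -2.04, -0.53 and -0.21. Trem2, a microglial lipid receptor, was the one microglia marker that limma called, with 584 to 871 normalized counts in old libraries and 398 to 456 in young ones and a log2 fold change of 0.76 ± 0.095 (Benjamini-Hochberg adjusted p = 0.01). In bulk tissue, a change in the number of cells of a type and a change in RNA per cell cannot be told apart. The part of microglia or of the other marked cells and tissues in the members' values was not tested. As a percentage of the homeostatic microglia sum, Tlr3 was 3.03 ± 0.30 in old and 2.76 ± 0.28 in young libraries, Tlr2 was 0.416 ± 0.143 in old and 0.304 ± 0.0793 in young ones, and Myd88 was 1.20 ± 0.112 in old and 1.23 ± 0.235 in young ones. The differences were smaller than the SDs for these 3 genes, apart from Tlr2, where the difference exceeded the SD of the young libraries alone. That also held for Tlr4, 0.214 ± 0.0725 in old and 0.168 ± 0.0276 in young libraries. It held for Tlr7, 0.581 ± 0.144 and 0.508 ± 0.0656, and for Tlr13, 0.485 ± 0.124 and 0.442 ± 0.039. Ticam1 was lower in old libraries, 1.46 ± 0.185 against 1.86 ± 0.424, which exceeded the old SD alone. Tlr9, Irak4 and Cd14 differed by less than either SD.

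In old mice treated with nanoligomer against untreated old mice, the question is whether the levels differ after treatment. The estimate was negative for 7 of the 10 genes, with a median log2 fold change of -0.20. Limma and edgeR each called 0 of the 10 and 0 of the 16517 genes tested, that is 0% of all genes. At an unadjusted p under 0.05, limma and edgeR counted 0 of the 10, where limma counted 7.22% of all genes in either direction. DESeq2 called 0 of the 10 and 0.0121% of all genes. It counted 1, Tlr2, as lower at an unadjusted p under 0.05, where 4.02% of all genes were.

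Tlr2 had the largest estimate. It ran from 20.5 to 101 normalized counts in treated old libraries with a median of 46.9, against 57.8 to 153 in untreated old libraries with a median of 70.5. The ranges overlapped, with the lowest treated library well under every untreated one. The log2 fold change was -0.73 ± 0.35, with an unadjusted p of 0.059 and an adjusted p of 0.678 in limma, and an unadjusted p of 0.0423 in DESeq2. Tlr7 ran from 37.4 to 154 in treated libraries with a median of 85.9, against 85.8 to 165 in untreated ones with a median of 109, and its estimate was -0.44 ± 0.24. Myd88 ran from 168 to 245 in treated libraries with a median of 226, against 227 to 284 in untreated ones with a median of 244, and its estimate was -0.21 ± 0.12.

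Tlr3 ran from 497 to 658 normalized counts in treated old libraries with a median of 571, against 564 to 743 in untreated ones with a median of 602, an estimate of -0.13 ± 0.096. Tlr4, Irak4 and Cd14 also had negative estimates, of -0.39 ± 0.39, -0.20 ± 0.38 and -0.21 ± 0.21. Tlr9, Tlr13 and Ticam1 had positive ones, of 0.05 ± 0.22, 0.02 ± 0.20 and 0.10 ± 0.13. The 6 untreated old libraries enter both this comparison and that of old with young mice, so opposite signs in the 2 comparisons are not independent. The homeostatic microglia sum ran from 465.5 to 567 CPM in treated libraries and 484 to 643 in untreated ones, and the pan-microglia and macrophage sum from 327 to 486 in treated and 400 to 636 in untreated ones. Of the 10 pan-microglia markers, 9 had negative estimates and 5 of these an unadjusted p under 0.05, where 3.6% of all genes were lower at that p. The homeostatic microglia markers were split, with 6 of 12 estimates negative and a median of -0.02. Hippocampal neurons had 9 of 10 negative estimates with a median of -0.59. Meningeal fibroblasts had 6 of 6 with -0.38, and oligodendrocytes 6 of 6 with -0.21. Striatum and choroid plexus ran the other way, each with 5 of 6 positive estimates and medians of 0.57 and 0.13. Hippocampal neuron markers summed to 362 to 856 CPM in treated libraries and 312 to 941 in untreated ones. The part of any of these markers in the members' values was not tested.

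In untreated APP/PS1 mice against littermates, the question is whether the amyloid transgenes go with other levels at 4 months. The median log2 fold change was 0.03, with 8 positive estimates, and limits were wide. Limma and edgeR called 0 of the 10, where each called 0.0486% of 16475 genes. DESeq2 gave no p for Tlr2, and it called none of the other members and 1.55% of all genes. At an unadjusted p under 0.05, limma and edgeR counted 0 of the 10, where limma counted 10.2% of all genes in either direction. DESeq2 counted none of the members other than Tlr2.

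The spread in APP/PS1 libraries was wide. Tlr2 ran from 19.8 to 248 normalized counts in APP/PS1 libraries with a median of 47.8, against 41.2 to 62.3 in littermates with a median of 49.6. Its log2 fold change was -0.04 ± 0.43. Tlr7 ran from 33.2 to 208 with a median of 50 in APP/PS1 libraries, against 48.2 to 70.5 with a median of 57.9 in littermates, and its estimate was 0.01 ± 0.38. In both genes the highest value is that of APP/PS1 female 3. Tlr3 ran from 444 to 621 in APP/PS1 libraries with a median of 509, against 414 to 590 in littermates with a median of 524, an estimate of 0.02 ± 0.13. Myd88 had an estimate of 0.02 ± 0.17, Ticam1 one of -0.0002 ± 0.14 and Cd14 one of 0.05 ± 0.23.

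The largest estimate was that of Irak4, with 43.7 to 152 normalized counts in APP/PS1 libraries and a median of 63.1, against 15.3 to 98.7 in littermates and a median of 65.3. Its log2 fold change was 0.41 ± 0.44, with 95% limits of -0.53 and 1.35. Tlr13, Tlr4 and Tlr9 had estimates of 0.24 ± 0.35, 0.22 ± 0.43 and 0.19 ± 0.32 in limma. For Tlr4 edgeR and DESeq2 both gave 0.53. The limits for Tlr2 were -0.98 and 0.89, so a difference of that size in either direction was within the error.

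Without APP/PS1 female 3, 1 of the 10 estimates was positive, that of Irak4, and the median was -0.07. Tlr2 then had a log2 fold change of -0.46 ± 0.29 and Tlr7 one of -0.37 ± 0.22, with unadjusted p-values of 0.133 and 0.115 in limma. Limma called 256 genes without that library, none of them a member. The homeostatic microglia sum ran from 381 to 837 CPM in APP/PS1 libraries, with female 3 highest, and 412 to 479 in littermates. The pan-microglia and macrophage sum ran from 256 to 1008 CPM in APP/PS1 libraries, with female 3 highest, and 249 to 323 in littermates. Its medians were 274 CPM in APP/PS1 libraries and 284 CPM in littermates. With female 3 in the fit, 10 of 10 estimates of these markers were positive, 0 of them at an unadjusted p under 0.05 in limma. Markers of hippocampal neurons summed to 462 to 865 CPM in APP/PS1 libraries and 684 to 907 in littermates, and the 6 striatum markers to 47.5 to 1062 in APP/PS1 libraries and 44.9 to 66.7 in littermates. The part of any of these markers in the members' values was not tested.

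In APP/PS1 mice treated with nanoligomer against untreated APP/PS1 mice, 9 of the 10 estimates were negative, with a median log2 fold change of -0.16. Limma and edgeR each called 0 of the 10 and 0% of 16124 genes. DESeq2 called 0 of the 10 and 0.0434% of all genes. At an unadjusted p under 0.05, limma counted 1 of the 10 as lower, Tlr13, where 1.51% of all genes were lower. DESeq2 also counted Tlr13 as lower, where 1.73% of all genes were, and edgeR counted 0. The limma count was 0 when APP/PS1 female 2, male 1 or male 2, or treated female 1, female 2 or male 3, was left out.

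Tlr13, which senses bacterial ribosomal RNA, stood at 48.9 and 31.3 normalized counts in treated females and 53.7, 41.7 and 43.9 in treated males. Untreated APP/PS1 libraries ran from 38.4 to 219 with a median of 68.6. All 5 treated libraries lay under the untreated median, and the groups overlapped at the low end. The log2 fold change was -0.80 ± 0.36, with an unadjusted p of 0.0463 and an adjusted p of 0.997 in limma. Without APP/PS1 female 3, the highest untreated library, the estimate was -0.56 ± 0.28 at an unadjusted p of 0.0722.

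Tlr7 had a positive estimate, at 63.3 and 85.0 normalized counts in treated females and 38.0, 64.7 and 42.1 in treated males, against 25 to 155 in untreated libraries with a median of 37.8. The estimate was 0.41 ± 0.41, and 0.71 ± 0.28 without APP/PS1 female 3, at an unadjusted p of 0.0301 in limma. Cd14 stood at 20.2 and 33.2 in treated females and 28.8, 40.2 and 8.54 in treated males, against 25.9 to 68 in untreated libraries with a median of 36. These groups overlapped, and the estimate was -0.65 ± 0.39, and -0.54 ± 0.41 without that library. Without APP/PS1 female 3, 6 of the 10 estimates were positive and the median was 0.03, so the count of negative estimates rests on that library. The homeostatic microglia sum ran from 403 to 450 CPM in treated libraries and 381 to 837 in untreated ones, and the pan-microglia and macrophage sum from 239 to 265 in treated and 256 to 1008 in untreated ones. The choroid plexus sum ran from 60.2 to 3842 CPM in treated libraries and 16.7 to 53.6 in untreated ones, and the part of these markers in the members' values was not tested.

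Each effect was also compared between males and females. No member's difference between the sexes was called in limma in any of the 4 comparisons, where 0% of genes were called in each, and the smallest adjusted p among members was 0.847. At an unadjusted p under 0.05, 3 of 40 differences stood out, where 4.39% of genes did in old against young, 4.71% in treated against untreated old, 5.1% in APP/PS1 against littermate and 4.52% in treated against untreated APP/PS1. For Cd14 in old against young, the log2 fold change was 0.11 in males and 1.01 in females, a difference of -0.90 (unadjusted p = 0.0419). The other 2 were Tlr4 under treatment in old mice and Tlr13 in APP/PS1 mice.

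Effects of comparisons that share no library were set against each other in joint limma fits. For the treatment in old mice minus that in APP/PS1 mice, 0 of the 10 members and 0% of 15990 genes were called. At an unadjusted p under 0.05, 0 of the 10 stood out, where 4.35% of all genes did, and Tlr13 came nearest with a difference of 0.82 ± 0.41 (unadjusted p = 0.0572). For the age effect minus the transgene effect, 0 of the 10 and 0.0429% of 16300 genes were called. Tlr3 differed by 0.38 ± 0.16 at an unadjusted p of 0.0256 and an adjusted p of 0.369, 1 of the 10 where 11.8% of all genes did so.

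Across the 35 libraries, the members were related to the sum of the pan-microglia and macrophage markers to unequal degrees. Pearson r of log2(CPM + 1) with that sum was 0.75 for Tlr7 and Cd14, 0.73 for Tlr2, 0.69 for Myd88 and 0.36 for Irak4. Without APP/PS1 female 3, r was 0.67 for Tlr7, 0.81 for Cd14, 0.58 for Tlr2, 0.70 for Myd88 and 0.17 for Irak4. The points share their libraries and depth, and groups and sexes are mixed in them, so these values describe the data. Among pairs of the 9 members other than Tlr4, r was highest for Tlr7 with Cd14, at 0.657, and lowest for Irak4 with Cd14, at 0.0726.

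**Figure D4:**
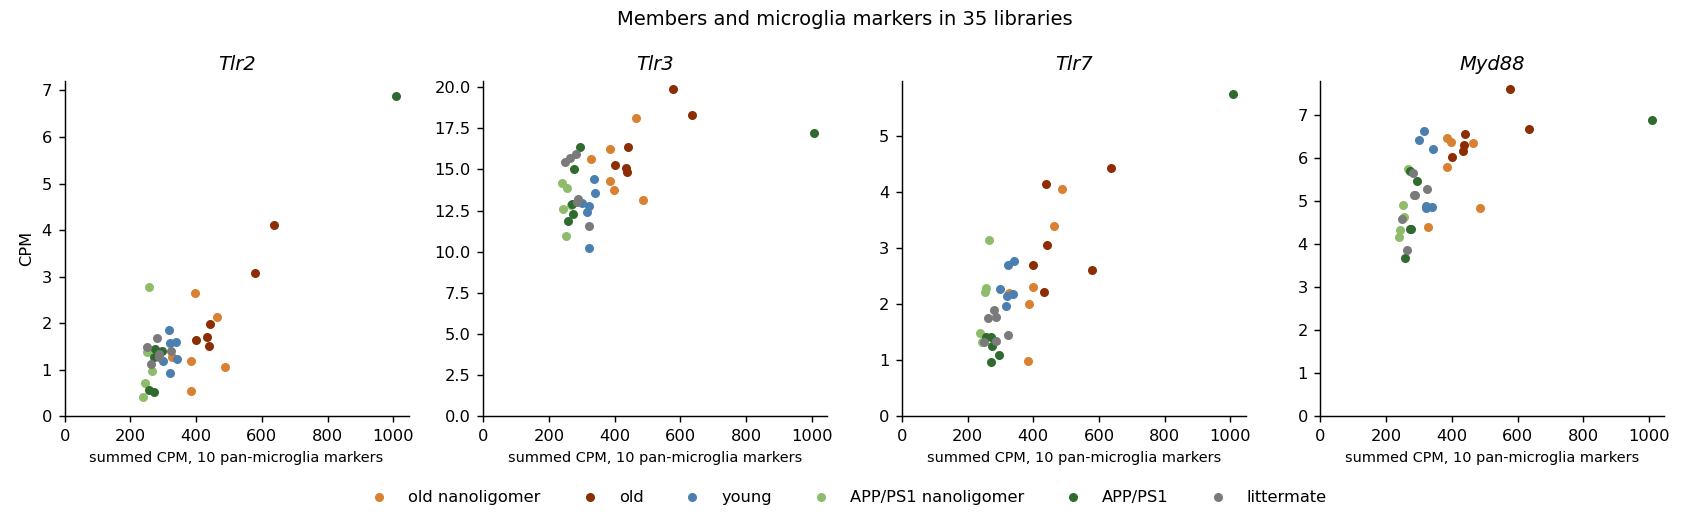
CPM of Tlr2, Tlr3, Tlr7 and Myd88 in each library against the summed CPM of the 10 pan-microglia and macrophage markers, coloured by group. APP/PS1 female 3 lies alone at 1008 CPM of markers, and the old libraries lie to the right of the young ones.

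The genes most like each member across the 35 libraries were taken from 14784 genes with a mean of at least 1 CPM. For Tlr2 they were Clic1, an intracellular chloride channel, with r = 0.81, and Ctsd, a lysosomal protease, with r = 0.78. For Tlr7 they were Tbxas1, thromboxane synthase, and Tspo, an outer mitochondrial membrane protein, with r of 0.80 and 0.79. Cd14 was closest to Cd84, a receptor of leukocytes, with r = 0.83, and Xaf1, an interferon-induced gene, with r = 0.82. For Tlr13 they were Itgax, an integrin, and Nckap1l, an actin regulator of blood cells, with r of 0.78 and 0.77. Without APP/PS1 female 3, r was 0.72 and 0.65 for the pair of Tlr2, 0.75 and 0.74 for that of Tlr7, 0.86 and 0.81 for that of Cd14, and 0.63 and 0.62 for that of Tlr13.

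For Myd88 and Tlr3, r with these genes moved little when APP/PS1 female 3 was left out. Myd88 was closest to Fcer1g, a signalling chain of immune receptors, with r = 0.77 and 0.76 without that library. Tlr3 was closest to Parp9, an interferon-induced gene, with r = 0.73 and 0.72 without it, and then to H2-Q4, a class I histocompatibility gene. Tlr9 had r = 0.62 with Tgfbr2, a receptor of transforming growth factor beta, and 0.52 without the library. Ticam1 had r = 0.62 with Acy3 and 0.54 without it, and Irak4 had r = 0.65 with 5430405H02Rik and 0.58 without it. Tlr4 averaged under 1 CPM and was not ranked.

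Other genes of the pathway were taken from 8 lists, with 70 genes tested in old against young, and limma and edgeR called none of them in any comparison. In old against young, 18 of the 70, 25.7%, had an unadjusted p under 0.05, where 6.13% of all genes did. The co-factors and chaperones had 8 of 11 positive estimates, 3 at an unadjusted p under 0.05 as higher and 1 as lower. Unc93b1, which carries endosomal receptors out of the endoplasmic reticulum, ran from 875 to 1336 normalized counts in old libraries with a median of 1034, against 669 to 879 in young libraries with a median of 769. Its log2 fold change was 0.49 ± 0.11, with a limma adjusted p of 0.24, and DESeq2 called it together with Ly86. Cd180 and Ly86, partners on the cell surface, had estimates of 0.60 ± 0.17 and 0.57 ± 0.15. Lbp, the lipopolysaccharide-binding protein, was the gene with a lower estimate, -1.35 ± 0.57, and is named after its value was seen. Choroid plexus markers had a median estimate of -2.04 in the same comparison, and their part in the Lbp value was not tested.

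Other Toll-like receptors had 4 of 6 genes tested, all with positive estimates, and Tlr1, the partner of Tlr2, had a log2 fold change of 0.94 ± 0.36. Downstream adaptors and kinases had 7 of 17 positive estimates and a median of -0.01, and Ticam2, the adaptor that bridges Tlr4 to Ticam1, had an estimate of 0.88 ± 0.28. Negative regulators had 8 of 13 positive estimates with none at an unadjusted p under 0.05. The receptors that share Myd88 with interleukin 1 had 3 of 3 positive estimates and likewise none.

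Downstream transcription factors had a median estimate of 0.22 and cytokines one of 1.04 in old against young mice. Irf7, the transcription factor of interferon genes, ran from 122 to 675 normalized counts in old libraries with a median of 341, against 75.8 to 152 in young libraries with a median of 104. Its log2 fold change was 1.65 ± 0.35 with a limma adjusted p of 0.239, and DESeq2 called it. Of the 9 transcription factors, 6 had positive estimates and 2 an unadjusted p under 0.05. Cxcl10, an interferon-induced chemokine, ran from 13.1 to 223 normalized counts in old libraries with a median of 67.4, against 0 to 20.1 in young libraries with a median of 9.73, an estimate of 2.94 ± 0.72. Ccl3, a chemokine of macrophages, ran from 26.3 to 58.5 in old libraries with a median of 37.5, against 11.03 to 22.0 in young ones with a median of 15.8, with no overlap. DESeq2 called both chemokines, which were 2 of the 4 cytokine genes tested, and all 4 had positive estimates. The list held 12 cytokine genes, and the rest had a mean under 10 over both groups. A gene low in young mice can pass that filter through the old libraries alone. The signs and the median therefore describe only the genes that passed.

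Of 12 symbols listed for other sensors of nucleic acids, 9 were tested. They had 8 of 9 positive estimates, 6 of them at an unadjusted p under 0.05, and a median of 0.46. Zbp1, a sensor of Z-form nucleic acid, ran from 18.8 to 152 normalized counts in old libraries with a median of 34.6, against 1.003 to 20.1 in young libraries with a median of 9.21. The log2 fold change was 2.59 ± 0.65, and DESeq2 called it. With a young median under 10, Zbp1 can have passed the filter through the old libraries alone. Ddx58, which encodes the RNA sensor RIG-I, and Tmem173, which encodes STING, had estimates of 0.54 and 0.46.

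In treated against untreated old mice, the lists had 6 of 72 genes, 8.33%, at an unadjusted p under 0.05, where 7.22% of all genes were. Zbp1 ran from 2.21 to 18.5 normalized counts in treated libraries with a median of 6.71, against 17.6 to 142 in untreated libraries with a median of 32.3. Its log2 fold change was -2.43 ± 0.60, with an unadjusted p of 0.0013 and an adjusted p of 0.678 in limma, and it was the 1 listed gene that DESeq2 called. With a treated median under 10, Zbp1 can have passed the filter through the untreated libraries alone. Irf7 ran from 67.6 to 224 in treated libraries with a median of 108, against 114 to 630 in untreated ones with a median of 319, an estimate of -1.43 ± 0.41. Unc93b1 ran from 615 to 888 in treated libraries with a median of 811, against 818 to 1248 in untreated ones with a median of 967, an estimate of -0.38 ± 0.12. Of 12 cytokine genes listed, 6 passed the filter, which a gene can do through the untreated libraries alone. All 6 had negative estimates with a median of -1.20, 1 of them at an unadjusted p under 0.05, Ccl3 at -1.41 ± 0.56.

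Of the nucleic acid sensors, 8 of 9 had negative estimates and 2 an unadjusted p under 0.05. Negative estimates made up 8 of 11 co-factors, 10 of 17 adaptors and kinases, 7 of 9 transcription factors and 10 of 13 negative regulators, with medians of -0.06, -0.04, -0.09 and -0.10. Il1r1, the receptor of interleukin 1, had an estimate of -0.71 at an unadjusted p under 0.05, and of the other Toll-like receptors 2 of 4 were positive. These values share the untreated old libraries with the comparison of old with young mice.

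**Figure D5:**
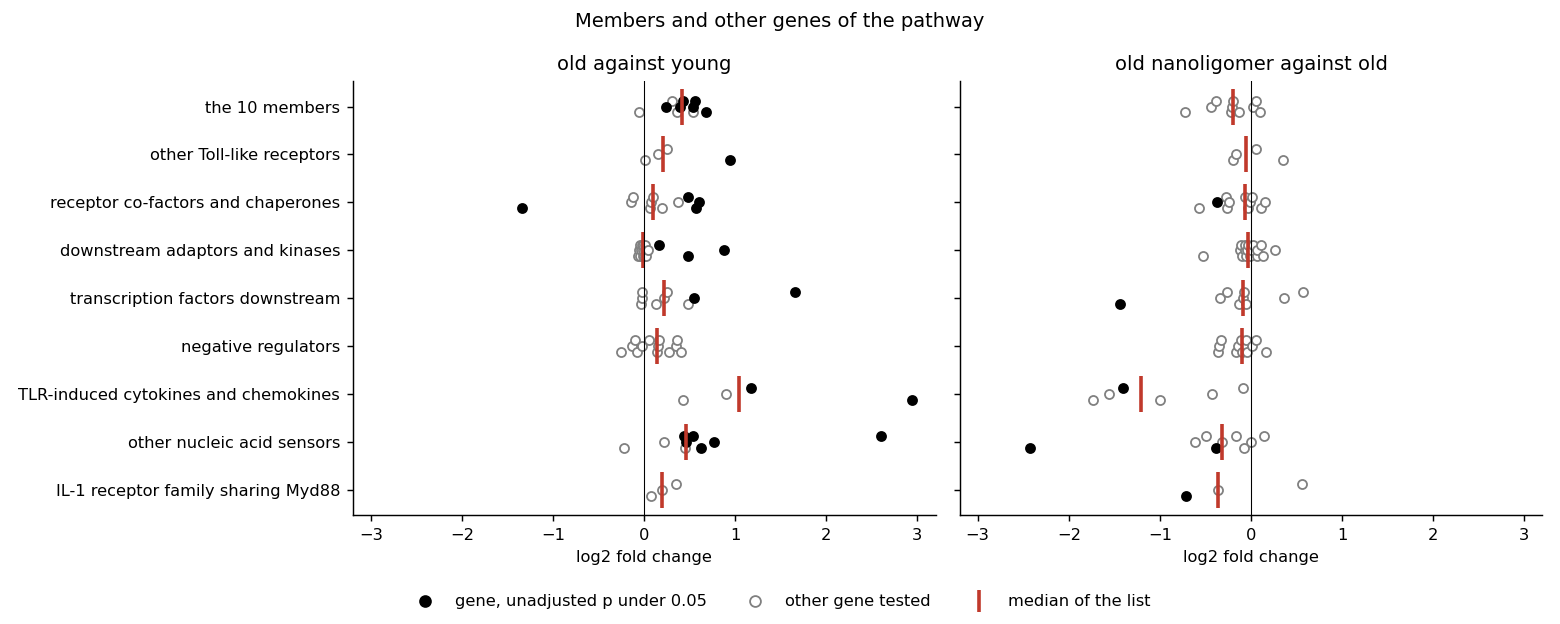
Log2 fold change of every tested gene of each list in old nanoligomer against old and in old against young, 2 comparisons that share the 6 untreated old libraries, with a red bar at the list's median. The lists of nucleic acid sensors and cytokines have medians of -0.32 and -1.20 with treatment and of 0.46 and 1.04 with age. Of 12 cytokine genes listed, 6 were tested with treatment and 4 with age.

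In APP/PS1 against littermate, 10 of 70 pathway genes, 14.3%, had an unadjusted p under 0.05, where 10.2% of all genes did. With treatment in APP/PS1 mice it was 4 of 68, 5.88%, where 2.96% of all genes did. Lbp had 40.6 to 110 normalized counts in APP/PS1 libraries, against 95.1 to 227 in littermates, a log2 fold change of -1.21 ± 0.30 with a limma adjusted p of 0.21, and it was the 1 listed gene that DESeq2 called there. With treatment in APP/PS1 mice its estimate was 1.51 ± 0.58, and the untreated APP/PS1 libraries enter both comparisons. Choroid plexus markers had median estimates of -0.89 and 2.79 in these comparisons, and their part in the Lbp values was not tested. Tlr5, the flagellin receptor, had an estimate of -1.04 and Jun, a transcription factor, one of -0.66 in APP/PS1 against littermate, while none of the cytokines or nucleic acid sensors reached that p. The interleukin 1 receptor family had 1 gene as higher, Il1rl1 at 1.55, and 2 as lower, Il1rap at -0.43 and Il1r1 at -0.50. Tab2 and Traf3, of the signalling chain, had estimates of 0.16 and -0.21, and the negative regulators Tnfaip3 and Sarm1 had -0.42 and -0.12. With treatment in APP/PS1 mice, Irf7 had an estimate of -1.37 ± 0.54 at an unadjusted p of 0.0281. The negative regulators Tnfaip3 and Irak3 had estimates of 0.51 and -0.78, each at an unadjusted p under 0.05, and none of the other lists had a further gene at that p.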

How the data were processed

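The 36 libraries were grouped by their labels. The authors deposited normalized counts, a signal scaled library by library, in 4 tables that hold 12 libraries each, and 0 value columns were left out. RNA was polyA-selected with a TruSeq kit, per the labels' protocols. STAR, DESeq2 and mm10 are named per the submitters' processing notes, with no role or version there, and the counting tool was not given in the sources used here. Dividing by each library's step returned whole reads for 100% of values within 0.001 reads. The column of APP/PS1 nanoligomer male 3 differs from its title by 1 letter. APP/PS1 nanoligomer female 3, at 0.913 M reads, was left out, while the others held 27.6 to 46.3 M.

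Each comparison was fitted within its own table with limma 3.58.1 (R 4.3.3) on log2(normalized count + 1), with sex and group as terms and an intensity trend, keeping genes whose mean was 10 or more. All 10 members passed this filter in each comparison. Benjamini-Hochberg adjustment covered all genes tested, with calls at an adjusted p under 0.05. Sex differences came from an interaction term and differences between comparisons from joint fits. Alternatives were another pseudocount, other filters, TMM scaling, no trend, no sex term, a replicate block, edgeR 4.0.16 (quasi-likelihood) and DESeq2 1.42.0 on recovered reads, and leaving out each library. The counts of members at an unadjusted p and with a positive estimate were added after seeing the data. Libraries of the same number in 2 groups deviated together (r over 0.1) in 3 of 23 pairs, so numbers were not taken as pairs. The procedure was tested on simulated data.

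The members and lists were chosen with earlier results of these data known. Up to 3 genes per list and comparison, by smallest p, were named, and for each member the 2 genes of highest r. Gene coordinates and exon lengths come from a GRCm38 annotation.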

Additional observations from a re-analysis of the deposited data

Results flagged for a closer look

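In a group of 6 libraries, 1 library can lie far from the rest by chance in about 1 of 20 groups. Of 60 combinations of a gene and a group, 7 held such a library, and 4 of these were APP/PS1 female 3. In that library Tlr2 had 6.88 CPM, with the nearest other APP/PS1 library at 1.45 CPM. Tlr7 had 5.75 CPM there, with the nearest at 1.42, Tlr9 had 6.85 CPM with the nearest at 3.07, and Tlr13 had 8.11 CPM with the nearest at 3.68. Its pan-microglia and macrophage markers summed to 1008 CPM, and their part in these levels was not tested. Old nanoligomer male 1 had 7.15 CPM of Tlr9, against 3.75 CPM in the nearest library of its group. Young male 1 had the lowest Tlr13 of its group, 1.601 CPM with the nearest at 2.03, and the highest Irak4, 3.23 CPM with the nearest at 1.604.

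The library left out for its depth, APP/PS1 nanoligomer female 3, held signal for some members above every untreated APP/PS1 library. Tlr3 stood at 290.2 CPM from 265 reads there, against at most 17.2 CPM. Irak4 stood at 175 CPM from 160 reads, against at most 4.22 CPM, and Tlr7 at 18.6 CPM from 17 reads, against at most 5.75 CPM. Tlr4 had 1 read and the other 6 members had 0.

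Members were flagged here under a strict rule. All tested males lay above and all tested females below the mean of the reference libraries of their sex, or the reverse. This held for a pair of members. Other members had male and female estimates of opposite sign without meeting the rule, such as Irak4 in old against young mice, at -0.14 and 0.76. For Tlr4 in old nanoligomer against old mice, the log2 fold change was -1.17 in males and 0.39 in females, a difference of -1.56 with an unadjusted p of 0.0396 and a limma adjusted p of 0.914. For Tlr13 in APP/PS1 against littermate mice, it was -0.52 in males and 1.003 in females, a difference of -1.52 with an unadjusted p of 0.0206 and a limma adjusted p of 0.847. Neither difference passed the adjusted threshold.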

How the results depend on the processing

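No member was called in any comparison under the alternatives run, other than Tlr3 in old against young mice by DESeq2, which called 1 member (log2 fold change 0.40). DESeq2 gave no p for Tlr2 in APP/PS1 against littermate. The Tlr3 estimate in that comparison ran from 0.34 to 0.44 when each library was left out, with limma adjusted p-values of 0.252 to 0.774. DESeq2 called 123, 2, 256 and 7 genes in old against young, old nanoligomer against old, APP/PS1 against littermate and APP/PS1 nanoligomer against APP/PS1, and in the last of these limma called 1 gene with no filter. The replicate block, in which numbers do not pair libraries by design, called 1 gene in old against young. Members at an unadjusted p under 0.05 numbered 1 by DESeq2 in old nanoligomer against old. In APP/PS1 nanoligomer against APP/PS1 they numbered 0 with no filter, with a mean of at least 50, by edgeR and with female 3 kept.

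Some estimates changed sign. In APP/PS1 against littermate, Ticam1 was 0.00033 with a pseudocount of 8, 0.013 by edgeR and 0.018 by DESeq2, and Tlr2 was 0.0056 with that pseudocount, 0.26 by edgeR and 0.26 by DESeq2. In APP/PS1 nanoligomer against APP/PS1, the replicate block gave 6 positive estimates, since its block of number F3 then holds 1 library and estimates equal those without APP/PS1 female 3, and turned Irak4 to 0.12, Myd88 to 0.038, Tlr2 to 0.12, Tlr4 to 0.10 and Tlr9 to 0.028. Keeping female 3 gave 3 positive estimates, with Irak4 at 0.89 and Tlr3 at 0.52. Beyond that, the cause of these changes was not tested.

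Leaving out each library in turn gave 4 to 11 called genes in old against young (11 without old female 1), 0 to 0 in old nanoligomer against old, 6 to 256 in APP/PS1 against littermate (256 without APP/PS1 female 3, 21 without female 1) and 0 to 0 in APP/PS1 nanoligomer against APP/PS1. Called members stayed at 0. Members at an unadjusted p under 0.05 numbered 2 to 8, 0 to 2, 0 to 0 and 0 to 1 in that order, and positive estimates 9 to 10, 1 to 3, 1 to 10 and 1 to 6. The count of positive estimates in old nanoligomer against old was 1 without old male 3 or treated male 1, and that of members at an unadjusted p there was 2 without old female 1. In old against young, Ticam1 ran from -0.15 to 0.010. In old nanoligomer against old, Irak4 ran from -0.46 to 0.16, Tlr13 from -0.088 to 0.12 and Tlr9 from -0.16 to 0.12. In APP/PS1 against littermate, Cd14 ran from -0.067 to 0.14, Myd88 from -0.070 to 0.10, Ticam1 from -0.097 to 0.073, Tlr13 from -0.042 to 0.43, Tlr2 from -0.46 to 0.13, Tlr3 from -0.060 to 0.072, Tlr4 from -0.15 to 0.43, Tlr7 from -0.37 to 0.21 and Tlr9 from -0.043 to 0.32. In APP/PS1 nanoligomer against APP/PS1, Irak4 ran from -0.25 to 0.12, Myd88 from -0.13 to 0.038, Tlr2 from -0.46 to 0.12, Tlr4 from -0.59 to 0.10 and Tlr9 from -0.32 to 0.030. Low depth limits Tlr4 most, with as few as 10 reads in a library.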
